A study of Mus musculus with 9 samples.

Results

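The genes described here are 31 genes of cholesterol and fatty acid synthesis, measured by RNA sequencing in 3 dendritic cell populations sorted from the mouse thymus. The genes were chosen by symbol from a fixed list and not by a rule on their measured levels, but earlier results of these data were known. All 31 were found among the 55278 gene symbols of the count table, and all 31 passed the filter on low counts, as did 15417 genes in all. By role, 3 are sterol regulators or carriers (Srebf2, Insig1 and Stard4), 7 belong to the mevalonate pathway and 11 to squalene and sterol synthesis. A further 5 make fatty acids, and 5 lengthen or desaturate them.

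Each population, CD301b, SIRPa and XCR1, was represented by 3 libraries from C57BL/6 mice of 8 weeks. No treatment or altered allele is recorded for any population, and the study's design names 3 mice. The names are surface proteins: CD301b is encoded by Mgl2, SIRPa by Sirpa and XCR1 by Xcr1. The sources used here give neither the sorting gates nor the cell numbers, and they do not tie libraries to mice. The p-values therefore cover the spread among libraries only, which may in part be technical. The labels give the source as thymocytes but the cell type as thymic dendritic cells, and the dendritic cell label is used here.

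Cells make cholesterol from acetyl-CoA through mevalonate, squalene and a series of sterols, and they make saturated fatty acids from the same acetyl-CoA through malonyl-CoA. Both routes are controlled by the sterol regulatory element binding proteins, SREBPs, which are held in the endoplasmic reticulum by Insig proteins when sterols are plentiful and are cut free to enter the nucleus when sterols are scarce. In dendritic cells and macrophages, sterols are also taken up with lipoproteins and dead cells and are exported again.

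Levels are in CPM, read counts scaled to a common library total, with TMM factors that correct for differences in library composition. Differences are log2 fold changes, each given with its standard error, from edgeR's quasi-likelihood test in 1 fit over all 9 libraries. A gene is called at an adjusted p below 0.05, with Benjamini-Hochberg adjustment over all genes tested. Total counts were 20246092 to 25438864 per library, of which the 31 genes took 20027 to 27577. Summed over 8 markers of type 1 conventional dendritic cells (cDC1), levels were 7040 to 8480 CPM in XCR1 libraries and 1186 to 1992 CPM in the other libraries. Wdfy4 made the largest part of this sum in CD301b and SIRPa, with means of 1422 and 1006 CPM, against 4486 CPM in XCR1. Xcr1 itself had means of 0.618, 9.59 and 766 CPM in CD301b, SIRPa and XCR1. Summed over 8 cDC2 markers, levels were 38.7 to 51.4 CPM in XCR1 libraries and 1697 to 2688 CPM in the others. The third XCR1 library stood apart on 12 thymocyte and T cell markers, at 505 CPM against 82.2 and 96.6 CPM in the other XCR1 libraries, so results against XCR1 are also given without it.

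XCR1 cells had the highest levels of Fasn, the fatty acid synthase, and Srebf2, which encodes SREBP2, the main activator of cholesterol synthesis genes. Of the 18 cholesterol enzymes, 2 were called higher (Hmgcs1 and Msmo1) and 2 lower (Sqle and Nsdhl) in SIRPa than in XCR1, 11.1% in each direction, and 14 were not called. The Msmo1 and Nsdhl calls were lost in 8 and 6 of the 9 fits that left out 1 library. Between CD301b and SIRPa cells no gene of the list was called. Against XCR1, 3 of 31 were called higher and 3 lower in CD301b, and 2 were called higher and 6 lower in SIRPa. Of all genes tested, 4.28% were called in CD301b against SIRPa (2.20% higher and 2.08% lower in CD301b), 22.6% in CD301b against XCR1 (13.5% and 9.12%) and 24.7% in SIRPa against XCR1 (13.9% higher and 10.7% lower in SIRPa). In CD301b against XCR1 the list's shares, 9.68% in each direction, were near this background. In SIRPa against XCR1, 6.45% of the list was higher, below the background, and 19.4% was lower, above it. Between CD301b and SIRPa, 5 of the 31 (16.1%) had an unadjusted p below 0.05 in edgeR, against 14.4% of all genes tested, and DESeq2 called 1. Both comparisons with XCR1 use the same 3 XCR1 libraries.

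**Figure D1:**
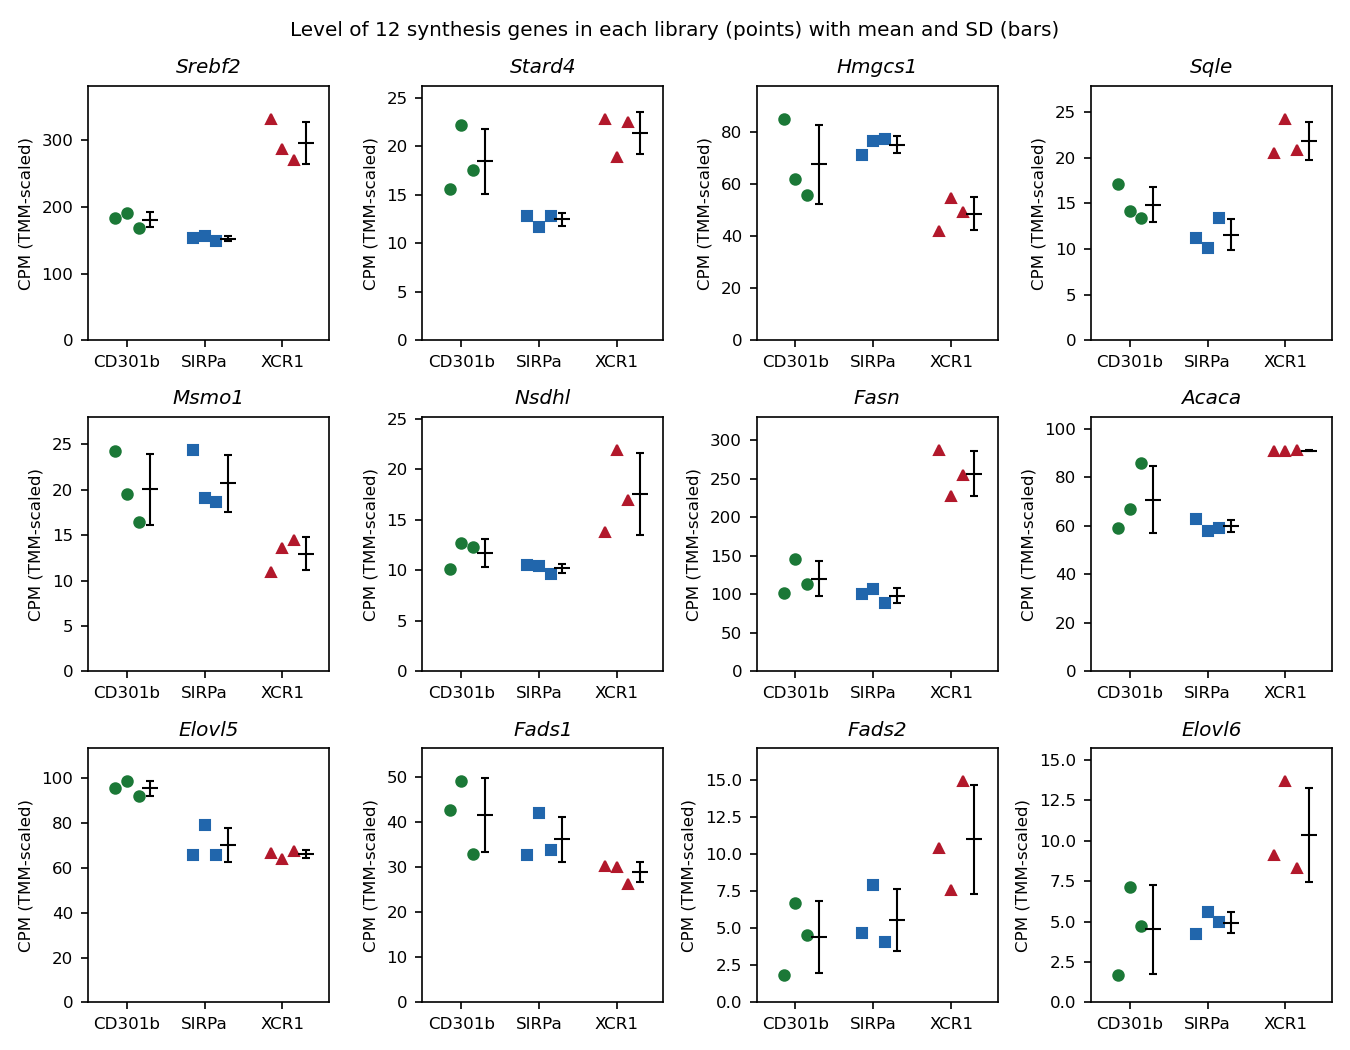
Level in CPM (linear axes from 0, TMM-scaled) of 12 of the genes in each of the 9 libraries, with points for libraries and bars for the mean and SD of each population. Fasn and Srebf2 in the 3 XCR1 libraries lie above all 6 other libraries, and Elovl5 in the 3 CD301b libraries lies above all 6 others.

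Srebf2 (ENSMUSG00000022463; chromosome 15, 82147181 to 82205379, plus strand, GRCm38) was at 183, 190 and 168 CPM in CD301b libraries 1, 3 and 4, at 153, 156 and 149 CPM in SIRPa libraries 1 to 3, and at 331, 286 and 269 CPM in XCR1 libraries 1 to 3. Every XCR1 library was above every other library, and the CD301b libraries were all above the SIRPa libraries. The difference was -0.71 ± 0.11 in CD301b against XCR1 (1.64-fold lower in CD301b, adjusted p = 3.02e-05, edgeR) and -0.95 ± 0.11 in SIRPa against XCR1 (1.94-fold lower in SIRPa, adjusted p = 6.21e-07). In these sorted bulk samples, fewer cells of a type and less RNA per cell cannot be told apart. CD301b against SIRPa differed by 0.24 ± 0.11, with a 95% interval of 0.02 to 0.46 and an adjusted p of 0.277, so this difference was not called. Without the third XCR1 library the differences against XCR1 were -0.77 and -1.02, with adjusted p of 2.53e-05 and 5.9e-07.

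Stard4, which carries cholesterol between membranes, was at 15.6, 22.2 and 17.5 CPM in CD301b, 12.9, 11.7 and 12.9 CPM in SIRPa and 22.8, 18.8 and 22.5 CPM in XCR1. The SIRPa libraries lay below all 6 others, and the CD301b and XCR1 libraries overlapped. Stard4 was called lower in SIRPa than in XCR1, by -0.78 ± 0.24 (adjusted p = 0.0186). The call was lost in 3 of 9 fits that each left out 1 library, without SIRPa library 2, XCR1 library 1 or XCR1 library 3, at adjusted p of 0.0527 to 0.065. In CD301b against SIRPa the difference was 0.56 ± 0.24, adjusted p = 0.252. Insig1, which holds the SREBPs in the endoplasmic reticulum, ranged from 19.9 to 28.9 CPM over the 9 libraries and was not called in any comparison. Its differences were 0.36 ± 0.20 in CD301b against SIRPa (adjusted p = 0.459), 0.20 ± 0.20 in CD301b against XCR1 (adjusted p = 0.567) and -0.16 ± 0.20 in SIRPa against XCR1 (adjusted p = 0.652).

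In the mevalonate pathway, 1 of 7 genes was called against XCR1, in both comparisons, and it was Hmgcs1, the synthase that makes HMG-CoA. It was called higher each time. This share of 14.3% was near that of all genes tested, 13.5% higher in CD301b and 13.9% higher in SIRPa. Hmgcs1 (ENSMUSG00000093930; chromosome 13, 119690379 to 119708260, plus strand) was at 84.9, 61.8 and 56.0 CPM in CD301b, 71.3, 76.7 and 77.4 CPM in SIRPa and 42.1, 54.7 and 49.3 CPM in XCR1. Each XCR1 library was below every other library, and CD301b and SIRPa libraries overlapped. The difference was 0.62 ± 0.16 in SIRPa against XCR1 (1.54-fold higher in SIRPa, adjusted p = 0.00579), and 0.47 ± 0.16 in CD301b against XCR1 (1.39-fold higher in CD301b, adjusted p = 0.037). The SIRPa call held in each fit that left out 1 library. The CD301b call did not: it was lost without CD301b library 1, without any 1 SIRPa library and without XCR1 library 1 or 3, at adjusted p of 0.0582 to 0.315. Where the annotation is concerned, 557 of the 4594 exonic bases of Hmgcs1 lie opposite a gene named Gm48342, which had 0 to 17 counts per library against 845 to 2134 for Hmgcs1.

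The other 6 mevalonate genes were not called in any comparison. Idi1, the isopentenyl diphosphate isomerase, was at 14.2 to 32.7 CPM and Pmvk, the phosphomevalonate kinase, at 11.7 to 24.9 CPM. Mvk, the mevalonate kinase, was at 3.3 to 8.99 CPM, and Mvd, which decarboxylates diphosphomevalonate, was at 4.34 to 10.3 CPM. Acat2, which joins acetyl-CoA units, and Fdps, the farnesyl diphosphate synthase, were near the limit of measurement, at 0.0471 to 2.01 CPM and 0.614 to 5.17 CPM. Fdps shares 1124 exonic bases with a gene named Gm43738 on the same strand, which had 0 counts in every library, so its count is uncertain.

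The promoter sequences of Hmgcs1, Fasn and Srebf2 are shown because Fasn and Srebf2 were called in both comparisons with XCR1 in every fit tried, and Hmgcs1 is the one gene with the sterol regulatory element searched for among those with a promoter window. RefSeq promoter windows of build GRCm38.p6, running from 250 bases before to 50 after the start, were found for 26 of the 31 genes. They are absent for Fdft1, Sqle, Stard4, Fads1 and Fdps. Windows were searched on both strands for the sterol regulatory element TCACNCCAC, for CCAAT, the NF-Y box, for GGGCGG, the Sp1 box, and for CACGTG, an E-box. In the lines that follow, printed 5′ to 3′ on the strand of the gene, capitals mark TCACNCCAC and CCAAT on either strand (ATTGG is CCAAT read on the other strand). Hmgcs1 is the only match to the printing rule, and Fasn and Srebf2 were added after their values were seen.
Hmgcs1, chr13:119690101-119690350, plus strand: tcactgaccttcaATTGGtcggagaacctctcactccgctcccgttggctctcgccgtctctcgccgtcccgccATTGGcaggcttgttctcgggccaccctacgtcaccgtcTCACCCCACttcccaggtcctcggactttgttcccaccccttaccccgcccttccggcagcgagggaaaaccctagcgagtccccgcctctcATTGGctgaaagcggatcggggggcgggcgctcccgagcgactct
Fasn, chr11:120824548-120824797, minus strand: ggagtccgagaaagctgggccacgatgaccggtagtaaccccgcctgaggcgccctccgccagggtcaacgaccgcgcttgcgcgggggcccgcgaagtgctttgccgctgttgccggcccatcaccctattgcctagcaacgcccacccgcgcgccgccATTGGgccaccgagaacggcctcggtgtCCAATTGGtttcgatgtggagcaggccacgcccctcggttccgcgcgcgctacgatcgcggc
Srebf2, chr15:82147019-82147180, plus strand: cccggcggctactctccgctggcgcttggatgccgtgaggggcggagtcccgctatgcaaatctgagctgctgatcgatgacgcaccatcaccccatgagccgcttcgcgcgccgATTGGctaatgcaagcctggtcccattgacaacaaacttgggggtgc
TCACNCCAC stood in 1 of 26 genes (3.85%), Hmgcs1, at 137 bases before the start, against 1.35% of the genes tested that have a window. CCAAT was found in 22 of 26 genes (84.6%) against 42.8% of the genes tested that have a window. GGGCGG was found in 21 of 26 (80.8%) against 66.9%, and CACGTG in 5 of 26 (19.2%) against 11.5%. The stretches printed hold 3 CCAAT in Hmgcs1, 3 in Fasn and 1 in Srebf2. These are matches of letters and not tests of binding, and a window without a match says only that these letters are not in it.

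Of the 11 squalene and sterol synthesis genes, 1 was called higher (9.09%, against 13.9% of all genes tested) and 2 lower (18.2%, against 10.7%) in SIRPa than in XCR1, and 8 were not called. In CD301b against XCR1 0 of 11 were called, against 22.6% of all genes tested. Sqle, the squalene epoxidase that makes the first oxygenated intermediate (ENSMUSG00000022351; chromosome 15, 59315077 to 59331192, plus strand), was at 17.1, 14.2 and 13.3 CPM in CD301b, 11.2, 10.1 and 13.4 CPM in SIRPa and 20.5, 24.2 and 20.8 CPM in XCR1. The XCR1 libraries were above all others, and CD301b library 4 overlapped the SIRPa range. Sqle was called lower in SIRPa than in XCR1 by -0.92 ± 0.24 (1.89-fold, adjusted p = 0.00775), and its difference in CD301b against XCR1 was -0.55 ± 0.24 (adjusted p = 0.114). The Sqle call held in every fit that left out 1 library.

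Msmo1, which removes methyl groups from sterol intermediates, was at 24.2, 19.5 and 16.5 CPM in CD301b, 24.3, 19.1 and 18.6 CPM in SIRPa and 10.9, 13.6 and 14.4 CPM in XCR1, with every XCR1 library below the others. It was called higher in SIRPa than in XCR1, by 0.67 ± 0.24 (adjusted p = 0.0476). In CD301b against XCR1 the difference was 0.63 ± 0.24 (adjusted p = 0.0693). The Msmo1 call was near the threshold and was lost in 8 of the 9 fits that left out 1 library, at adjusted p of 0.0547 to 0.231. The fit without CD301b library 4 was the exception. Nsdhl, which acts beside Msmo1 in the removal of methyl groups, was at 10.1, 12.7 and 12.3 CPM in CD301b, 10.5, 10.4 and 9.65 CPM in SIRPa and 13.8, 21.9 and 17.0 CPM in XCR1. It was called lower in SIRPa than in XCR1, by -0.78 ± 0.27 (adjusted p = 0.0396), and was lost in 6 of 9 such fits, namely those without CD301b library 3, any 1 SIRPa library, or XCR1 library 2 or 3, at adjusted p of 0.051 to 0.207. In CD301b against XCR1, where the groups also did not overlap, its difference was -0.58 ± 0.27 (adjusted p = 0.139).

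The remaining 8 sterol genes were not called in any comparison. Cyp51, the lanosterol demethylase, was at 28.5 to 52.7 CPM and Fdft1, the squalene synthase, at 16.4 to 30.7 CPM. Fdft1 shares 774 of its exonic bases with Ctsb on the opposite strand, and Ctsb had 4565 to 36294 counts per library, against 335 to 771 for Fdft1. Ebp, the sterol isomerase, was at 15.3 to 29.4 CPM, Sc5d, a sterol desaturase, at 10.7 to 26.9 CPM and Lss, the lanosterol synthase, at 6.05 to 9.97 CPM. Dhcr7, which makes cholesterol in the last step of one branch, was at 12.5, 16.5 and 13.6 CPM in CD301b, above every XCR1 library, the lowest of which was at 2.74 CPM. The difference was 1.01 ± 0.41 (adjusted p = 0.0895) and not called. Hsd17b7, a sterol ketoreductase, was at 3.13 to 8.29 CPM, and Tm7sf2, a sterol reductase, was at 0.449 to 4.11 CPM. Tm7sf2 shares 532 exonic bases with Vps51 on the same strand, which had 322 to 696 counts per library, so its count is uncertain.

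**Figure D2:**
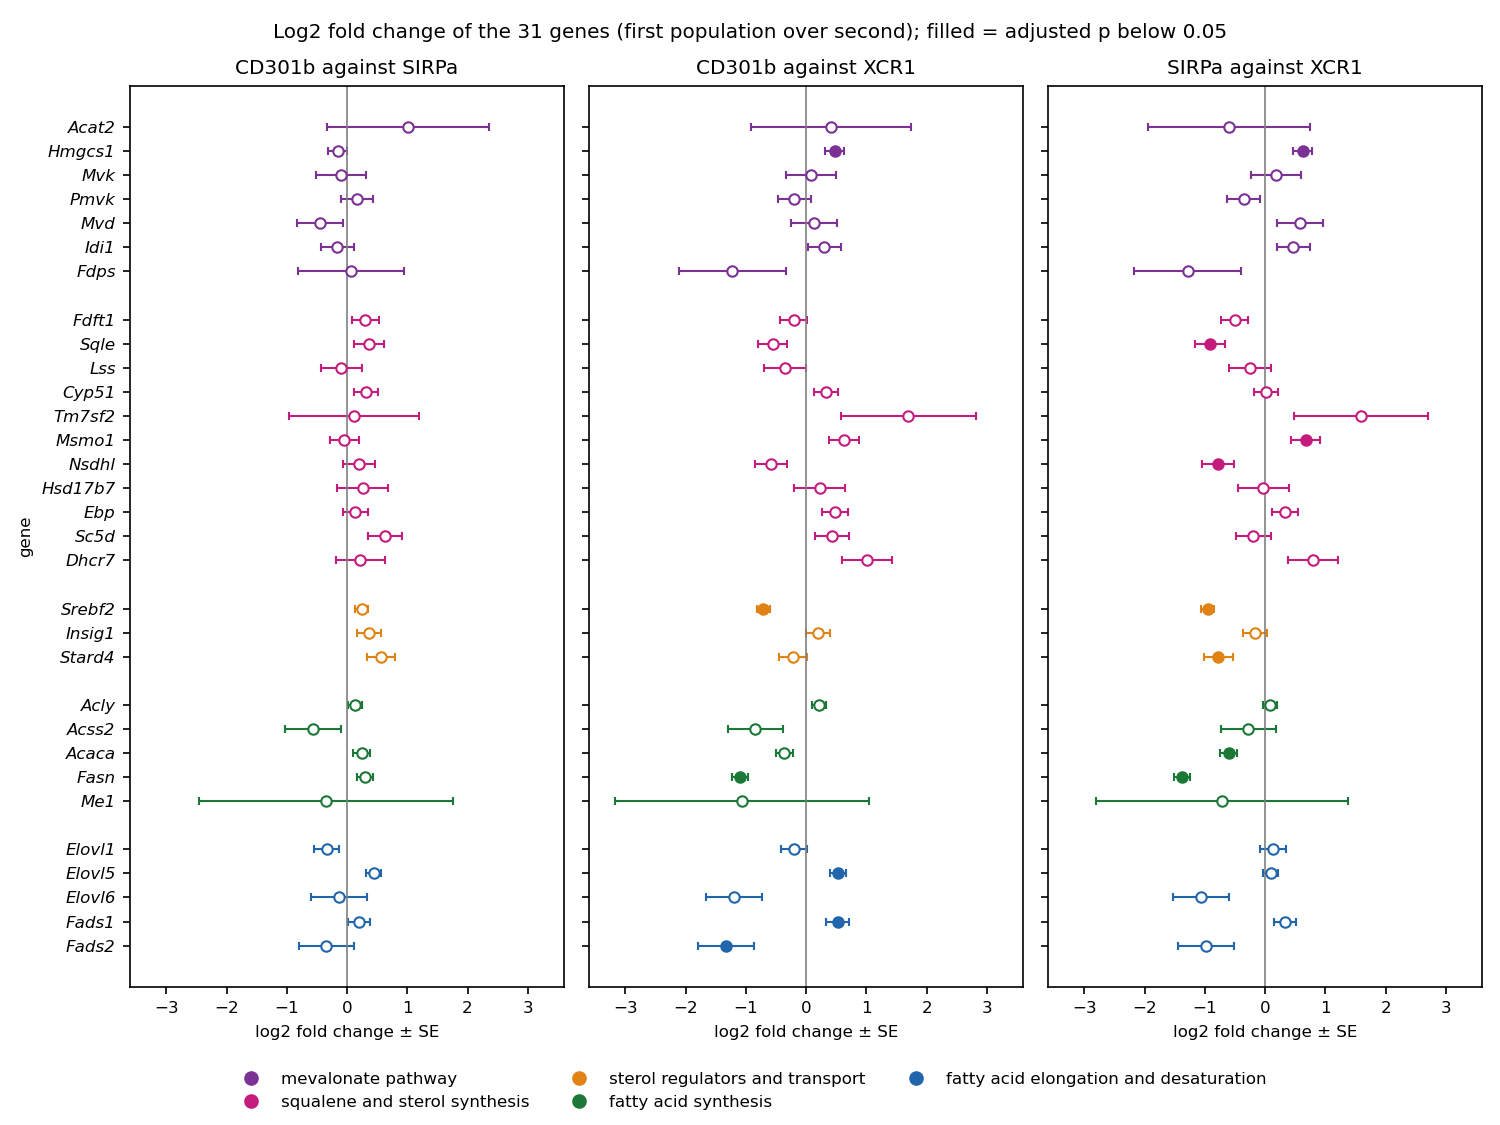
Log2 fold change of each of the 31 genes in the 3 comparisons, with points for the estimate, bars for its standard error, colour for the role and filled points for called genes, on an axis linear in log2. Most genes lie within 1 log2 unit of 0, and the called genes lie on both sides of 0 in both comparisons with XCR1.

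In fatty acid synthesis, Fasn had the smallest adjusted p of the list in both comparisons with XCR1. Fasn (ENSMUSG00000025153; chromosome 11, 120805846 to 120824547, minus strand) encodes the multi-domain enzyme that builds palmitate. It was at 102, 145 and 114 CPM in CD301b, 100, 107 and 88.1 CPM in SIRPa and 287, 228 and 255 CPM in XCR1. Every XCR1 library was above all 6 others, and CD301b and SIRPa libraries overlapped. Fasn was called lower in CD301b than in XCR1 by -1.09 ± 0.13 (2.13-fold, adjusted p = 2.21e-06) and lower in SIRPa than in XCR1 by -1.38 ± 0.13 (2.61-fold, adjusted p = 9.06e-08). In CD301b against SIRPa the difference was 0.29 ± 0.13, with a 95% interval of 0.01 to 0.57 and an adjusted p of 0.311. Without the third XCR1 library the differences against XCR1 were -1.10 and -1.39, with adjusted p of 7.88e-06 and 3.01e-07.

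Acaca, the acetyl-CoA carboxylase that makes the malonyl-CoA used by Fasn (ENSMUSG00000020532; chromosome 11, 84129672 to 84401651, plus strand), was at 59.3, 67.1 and 86.1 CPM in CD301b, 62.7, 57.8 and 59.2 CPM in SIRPa and 90.7, 90.8 and 91.2 CPM in XCR1. The XCR1 libraries were the 3 highest and CD301b libraries the most spread. Acaca was called lower in SIRPa than in XCR1 by -0.60 ± 0.14 (1.52-fold, adjusted p = 0.00288), in every fit tried. In CD301b against XCR1 the difference was -0.36 ± 0.14 (adjusted p = 0.0723). Acly, the ATP citrate lyase that supplies cytosolic acetyl-CoA to both routes, did not differ beyond the threshold in any comparison. It was at 148 to 183 CPM in CD301b, 146 to 160 CPM in SIRPa and 129 to 156 CPM in XCR1, with 95% intervals of -0.12 to 0.37, -0.03 to 0.45 and -0.16 to 0.33 for CD301b against SIRPa, CD301b against XCR1 and SIRPa against XCR1. Acss2, which makes acetyl-CoA from acetate, was at 3.35 to 7.37 CPM and was not called. Me1, the malic enzyme, was at 0 in 4 of the 9 libraries and at no more than 1.66 CPM in the others.

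Of the 5 genes that lengthen or desaturate fatty acids, 2 (40%, against 13.5% of all genes tested) were called higher in CD301b against XCR1. A further 1 (20%, against 9.12%) was called lower. In SIRPa against XCR1 0 were called, against 24.7% of all genes tested. Elovl5, an elongase of polyunsaturated fatty acids (ENSMUSG00000032349; chromosome 9, 77917364 to 77984519, plus strand), was highest in CD301b. It was at 95.6, 98.5 and 91.9 CPM in CD301b, 65.7, 78.9 and 65.7 CPM in SIRPa and 66.7, 63.9 and 67.3 CPM in XCR1, so that no CD301b library overlapped the others. The difference was 0.53 ± 0.13 in CD301b against XCR1 (1.45-fold, adjusted p = 0.00362), in every fit tried. In CD301b against SIRPa it was 0.44 ± 0.13, with a 95% interval of 0.18 to 0.71 and an adjusted p of 0.0515. Of 14 alternative fits 2 passed the threshold, DESeq2 and edgeR on the 6 libraries alone, at adjusted p of 0.0145 and 0.0469. The other 12, among them every fit that left out 1 library, gave 0.051 to 0.248.

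Fads1, which desaturates polyunsaturated fatty acids, was at 42.6, 49.1 and 32.8 CPM in CD301b, 32.7, 41.9 and 33.9 CPM in SIRPa and 30.4, 30.0 and 26.4 CPM in XCR1, with the XCR1 libraries lowest. It was called higher in CD301b than in XCR1, by 0.52 ± 0.19 (adjusted p = 0.0476), but lost that call in 8 of the 9 fits that left out 1 library, at adjusted p of 0.0671 to 0.214. The fit without CD301b library 4 was the exception. Fads2, the other desaturase of this pathway, was at 1.87, 6.70 and 4.55 CPM in CD301b, 4.68, 7.90 and 4.05 CPM in SIRPa and 10.4, 7.60 and 14.9 CPM in XCR1, and CD301b and XCR1 did not overlap. It was called lower in CD301b than in XCR1, by -1.33 ± 0.47 (adjusted p = 0.0451), and lost that call in 5 of 9 such fits, without CD301b library 1 or 4, SIRPa library 1 or XCR1 library 1 or 3, at adjusted p of 0.0514 to 0.185. Elovl6, the elongase that lengthens palmitate, was at 1.67 to 7.12 CPM in CD301b, 4.25 to 5.57 CPM in SIRPa and 8.29 to 13.7 CPM in XCR1, and neither comparison with XCR1 was called (-1.20 ± 0.46, adjusted p = 0.0705, and -1.07 ± 0.46, adjusted p = 0.106). Elovl1, an elongase of very long chains, was at 21.1 to 39.5 CPM and was not called.

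Over the list as a whole, the median difference of the 31 genes was 0.17 in CD301b against SIRPa, 0.08 in CD301b against XCR1 and -0.20 in SIRPa against XCR1, where all genes tested had medians of 0.01, 0.05 and 0.06. With 1 library left out, the median in CD301b against SIRPa ran from 0.10 (without CD301b library 3) to 0.23. In CD301b against XCR1 it changed sign, from -0.15 (without CD301b library 3) to 0.10 (without XCR1 library 2), and was also below 0 without CD301b library 1 (-0.03) or 4 (-0.01) or XCR1 library 3 (-0.08) and at 0.00 without XCR1 library 1. In SIRPa against XCR1 it ran from -0.27 to -0.05 (without XCR1 library 2). Groups that did not overlap were counted for 6, 15 and 12 of the 31 genes, against 22.1%, 34.4% and 40.2% of all genes tested. Fatty acid enzymes had medians of -0.60 in CD301b against XCR1 and -0.44 in SIRPa against XCR1, and cholesterol enzymes 0.27 and -0.01. Summed over 10 genes, fatty acid enzymes were at 537 ± 42.9 CPM (SD, n = 3) in CD301b, 469 ± 15.7 CPM in SIRPa and 648 ± 47.2 CPM in XCR1. Without Fasn the same sum was 417 ± 23.2, 371 ± 6.69 and 391 ± 17.7 CPM, so that CD301b and XCR1 overlapped. Summed over 18 genes, cholesterol enzymes were at 319 ± 30.8, 299 ± 6.20 and 278 ± 36.5 CPM. The ratio of the 2 sums was 1.46 to 1.93 in CD301b libraries, 1.48 to 1.63 in SIRPa libraries and 1.88 to 2.79 in XCR1 libraries, with Fasn included. Fatty acid synthesis genes without Fasn summed to 238 to 249 CPM in CD301b, 210 to 227 CPM in SIRPa and 227 to 255 CPM in XCR1. The regulators without Srebf2 summed to 45.4 ± 3.50, 33.5 ± 1.23 and 44.9 ± 1.97 CPM. In both sums CD301b and XCR1 overlapped once Fasn or Srebf2 was left out. Per kb of exon, the most abundant genes in CD301b were Acly at 32.2 CPM, Elovl5 at 27.1 CPM and Srebf2 at 25.1 CPM, and in XCR1 Srebf2 at 41.1 CPM, Acly at 27.8 CPM and Fasn at 23.4 CPM.

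**Figure D3:**
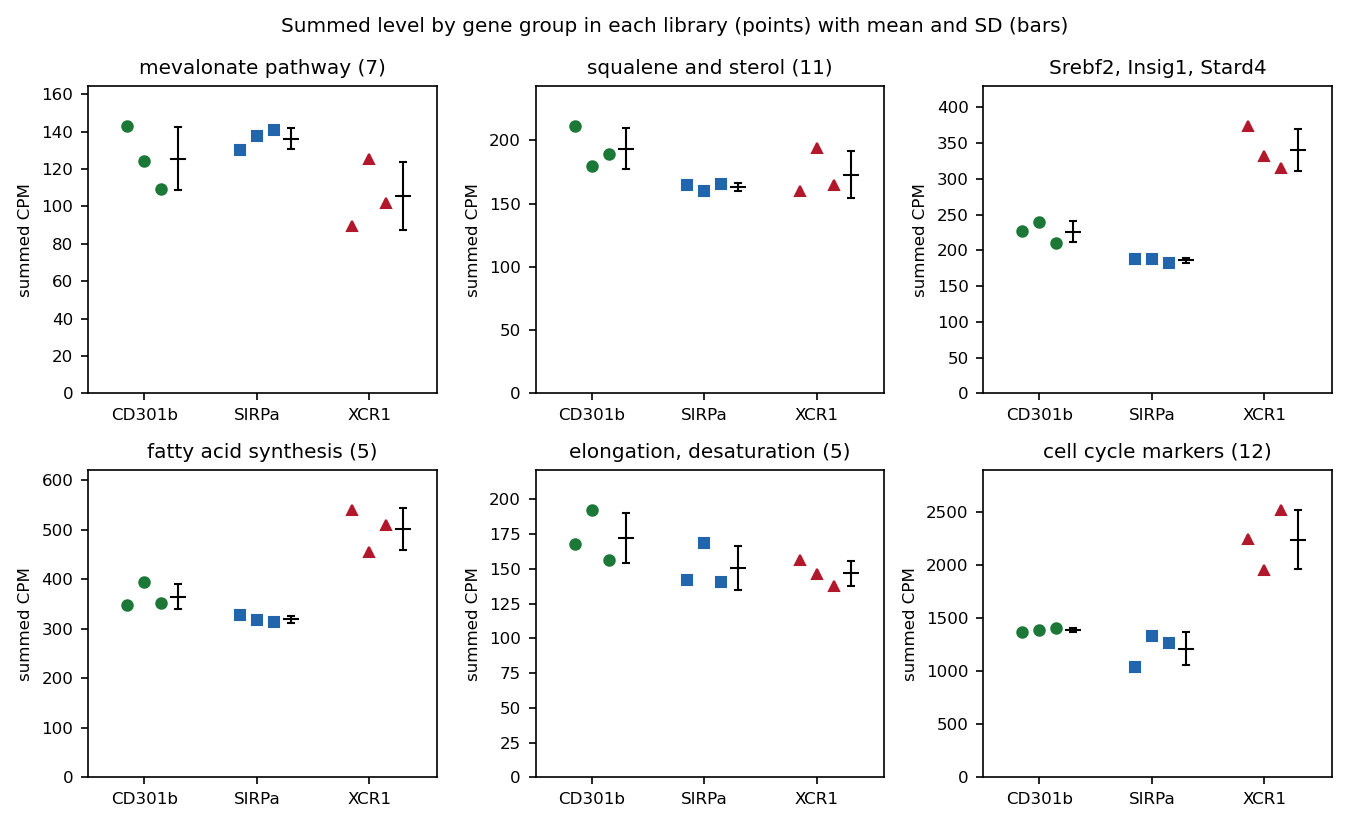
Summed level in CPM (linear axes from 0) of the genes of each role and of 12 cell cycle genes in each library, with points for libraries and bars for the mean and SD of each population. The sums for fatty acid synthesis, the regulators and the cell cycle genes are highest in XCR1 libraries, but without Fasn and Srebf2 the first 2 of these overlap between CD301b and XCR1, and the summed mevalonate genes of CD301b overlap those of both other populations.

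Markers of other cells and of the cell cycle also differed between the populations, in some lists in both directions. Of all genes tested, 13.5% were called higher and 9.12% lower in CD301b than in XCR1. In SIRPa against XCR1 these shares were 13.9% and 10.7%, and 2.20% were called higher in CD301b than in SIRPa. Summed over 12 cell cycle genes, levels were 1365 to 1408 CPM in CD301b, 1035 to 1331 CPM in SIRPa and 1957 to 2516 CPM in XCR1, and 8 and 11 of 12 were called lower in CD301b and SIRPa than in XCR1. Mki67, a marker of dividing cells, was lower by -0.80 ± 0.14 in CD301b and -1.06 ± 0.14 in SIRPa (adjusted p = 0.000217 and 9.75e-06). Summed over 8 macrophage markers, levels were 1649 to 1897 CPM in CD301b, 2670 to 3089 CPM in SIRPa and 185 to 206 CPM in XCR1, and 8 of 8 were called higher in both populations than in XCR1. Of these markers, Mertk was at 0 in XCR1 library 2, and C1qa was at 0.855 to 9.92 CPM in XCR1. Summed over 12 thymocyte and T cell markers, levels were 327 to 546 CPM in CD301b, 435 to 566 CPM in SIRPa and 82.2 to 505 CPM in XCR1. Of the 11 tested only Cd4 was called, higher in CD301b and SIRPa than in XCR1, and Ptcra was at or near 0 in all libraries. Cd4 made the largest part of this sum in CD301b and SIRPa, at 195 to 240 and 281 to 317 CPM, against 15.1 to 39.5 CPM in XCR1. Summed over 5 plasmacytoid dendritic cell markers, levels were 483 to 620 CPM in CD301b, 329 to 369 CPM in SIRPa and 115 to 137 CPM in XCR1. Against XCR1, 4 and 3 of 5 were called higher, and Klk1 was at 0 in 4 libraries. Tcf4 made the largest part of this sum in CD301b and SIRPa, with means of 388 and 203 CPM, against 43.5 CPM in XCR1. Between CD301b and SIRPa only Tcf4 was called, and the estimates were higher in CD301b for 3 of the 5 and lower for 2. Summed over 7 epithelial and stromal markers, levels were 191 to 229, 75.3 to 91.9 and 41.1 to 58.4 CPM. Of the 5 tested, 3 and 2 were called higher than in XCR1, and Pdgfra and Col1a1 were at 0 in most libraries. Epcam and Pecam1 made most of this sum in CD301b, with means of 99.4 and 104 CPM. Means in CD301b, SIRPa and XCR1 were 4.17, 8.96 and 5.65 CPM for Krt8 and 3.17, 3.54 and 0.416 CPM for Krt5. Those for Psmb11 were 1.68, 0.878 and 0.339 CPM. Summed over 8 markers of mature dendritic cells, levels were 2862 to 3239, 3200 to 3277 and 2196 to 2872 CPM, with 4 higher and 2 lower in CD301b and 5 higher in SIRPa than in XCR1. Summed over 6 B cell markers, they were 7.32 to 8.34, 16.3 to 28.2 and 2.44 to 14.3 CPM. All 6 general dendritic cell markers were called higher in CD301b than in SIRPa, at summed levels of 28263 to 32874 and 20673 to 22596 CPM. Without the third XCR1 library, 8 of the 14 calls against XCR1 remained, those of Fasn and Srebf2 in both comparisons, Elovl5 in CD301b (0.55, adjusted p = 0.00948), and Acaca (-0.60, adjusted p = 0.0084), Hmgcs1 (0.63, adjusted p = 0.0148) and Sqle (-0.95, adjusted p = 0.0155) in SIRPa. The other 6 were lost with differences of 0.48 for Hmgcs1, 0.46 for Fads1 and -1.04 for Fads2 in CD301b and 0.76 for Msmo1, -0.81 for Nsdhl and -0.74 for Stard4 in SIRPa, against 0.47, 0.52, -1.33, 0.67, -0.78 and -0.78 with all libraries. The part of cell division or of RNA from any of these cells in the differences of the list was not tested.

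Genes that act beside the list were examined in 4 further lists. The shares to set their counts against are those of all genes tested. These were 13.5% higher and 9.12% lower in CD301b than in XCR1, and 13.9% higher and 10.7% lower in SIRPa than in XCR1. In CD301b against SIRPa they were 2.20% higher and 2.08% lower in CD301b. Of 12 other mevalonate and sterol enzymes, 0 were called in CD301b against either population, and 1 was called lower in SIRPa than in XCR1. This was Nus1, a subunit of the enzyme that makes dolichol precursors, at 54.0, 42.5 and 51.8 CPM in CD301b, 43.1, 41.7 and 40.4 CPM in SIRPa and 56.1, 67.4 and 53.1 CPM in XCR1. It was lower in SIRPa by -0.50 ± 0.15 (adjusted p = 0.0217), a call that was lost without SIRPa library 2 or 3 or XCR1 library 2, at adjusted p of 0.0581 to 0.129.

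Of 12 tested genes of SREBP control and sterol uptake (14 listed), 3 (25%) were called higher and 1 (8.33%) lower in CD301b than in XCR1. In SIRPa against XCR1, 4 (33.3%) were called higher and 2 (16.7%) lower. Of all genes tested, 13.5% and 9.12% were called in CD301b and 13.9% and 10.7% in SIRPa. Npc1, which moves cholesterol out of lysosomes, was at 173 ± 6.60 CPM (SD, n = 3) in CD301b, 181 ± 21.2 CPM in SIRPa and 47.2 ± 5.24 CPM in XCR1, with differences of 1.88 ± 0.12 and 1.94 ± 0.12 (adjusted p = 1.98e-10 and 1.26e-10). Lrp1, a scavenging receptor, was at 233 ± 30.0, 147 ± 22.5 and 13.5 ± 1.74 CPM. It was the only gene of this list called between CD301b and SIRPa, at 0.66 ± 0.13 (adjusted p = 0.00476). That is 1 of 12 (8.33%) higher in CD301b, against 2.20% of all genes tested. Against XCR1 Lrp1 was higher by 4.11 ± 0.15 in CD301b and 3.45 ± 0.15 in SIRPa (adjusted p = 3.25e-14 and 3.64e-13). Lipa, the lysosomal acid lipase, was called higher in SIRPa than in XCR1 by 0.70 ± 0.13 (adjusted p = 0.00025). Mylip, a ubiquitin ligase that limits lipoprotein uptake, was higher in both populations than in XCR1 (0.55 ± 0.14 and 0.43 ± 0.14, adjusted p = 0.00558 and 0.0254). Insig2 and Scarb1 are named after their values were seen. Insig2, a relative of Insig1, was lower in both (-1.11 ± 0.39 and -1.10 ± 0.39, adjusted p = 0.048 and 0.0459), and Scarb1, the receptor for high-density lipoprotein, was lower in SIRPa (-0.74 ± 0.17, adjusted p = 0.00306). With 1 library left out, the Insig2 call in CD301b was lost without CD301b library 1 or 4, any 1 SIRPa library, or XCR1 library 1 or 3 (adjusted p up to 0.173). In SIRPa, Insig2 was lost without SIRPa library 1 or 2 or XCR1 library 1 or 3 (up to 0.169), and Mylip without SIRPa library 1 or 3 or XCR1 library 1 or 3 (up to 0.13). Srebf1, which encodes the other SREBP proteins, was at 60.9 ± 16.5, 53.8 ± 2.76 and 56.3 ± 14.0 CPM and was not called in any comparison (adjusted p = 0.803, 0.758 and 0.874).

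Of 22 tested further fatty acid enzymes (29 listed), 2 (9.09%, against 2.20% of all genes tested) were called in CD301b against SIRPa, both higher in CD301b. These were Scd2, a stearoyl-CoA desaturase, at 0.51 ± 0.13 (adjusted p = 0.0249), and Dgat2, which makes triglycerides, at 0.65 ± 0.18 (adjusted p = 0.0463). The Scd2 call was lost without CD301b library 3 or any 1 SIRPa library, at adjusted p of 0.0886 to 0.162. The Dgat2 call was lost in 8 of the 9 fits that left out 1 library, all but that without XCR1 library 3, at adjusted p of 0.0503 to 0.229. Scd2 was at 185, 242 and 199 CPM in CD301b, 143, 146 and 151 CPM in SIRPa and 166, 174 and 230 CPM in XCR1. Scd1, the main desaturase of liver, was at 11.5 to 23.0 CPM and was not called. Against XCR1, 4 (18.2%, against 13.5% of all genes tested) were called higher and 3 (13.6%, against 9.12%) lower in CD301b. In SIRPa 3 (13.6%, against 13.9%) were called higher and 3 (13.6%, against 10.7%) lower. Lpin1, a phosphatidate phosphatase, was higher by 0.69 ± 0.15 in CD301b and 1.06 ± 0.15 in SIRPa (adjusted p = 0.00165 and 1.57e-05), and Dgat2 was higher by 0.82 ± 0.18 in CD301b (adjusted p = 0.00206). Hacd2, a dehydratase of fatty acid elongation, was lower by -1.15 ± 0.28 in CD301b and -1.18 ± 0.28 in SIRPa (adjusted p = 0.00466 and 0.00344). Its relative Hacd4 was higher in both, at 13.1 ± 2.44 and 18.1 ± 1.96 CPM against 0.657 ± 0.749 CPM in XCR1 (adjusted p = 7.55e-05 and 2.85e-05), and 746 of its exonic bases lie opposite Focad. The other called genes, named after their values were seen, were Hacd1, higher in CD301b (5.36 ± 1.64, adjusted p = 0.0217), Scd4, lower in CD301b (-3.49 ± 0.99, adjusted p = 0.0137), Acsl5, lower in both (-0.35 ± 0.12 and -0.44 ± 0.12), Acsl1, higher in SIRPa (0.76 ± 0.21), and Scd2, lower in SIRPa (-0.37 ± 0.13). With 1 library left out, these calls were lost for Hacd1 without CD301b library 1 or XCR1 library 1 or 2 (adjusted p up to 0.129), and for Acsl1 without SIRPa library 3 or XCR1 library 3 (up to 0.0754). Those for Acsl5 were lost in CD301b without CD301b library 3 or 4 or any 1 XCR1 library (up to 0.124) and in SIRPa without SIRPa library 3 (0.0505). That for Scd2 was lost in SIRPa without any 1 SIRPa library or XCR1 library 3 (up to 0.255). Scd4 and Hacd1 were at or below 6.55 and 4.02 CPM in every library, and Scd4 may share reads with its close copies Scd1, Scd2 and Scd3.

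The list on sterol efflux, esters and oxysterols had the largest share of genes called against XCR1 among the 4 further lists. Of 10 tested genes (11 listed), 7 (70%, against 13.5% of all genes tested) were higher and 1 (10%, against 9.12%) lower in CD301b than in XCR1. In SIRPa against XCR1, 7 (70%, against 13.9%) were higher and 2 (20%, against 10.7%) lower. Between CD301b and SIRPa 0 of 10 were called, against 4.28% of all genes tested. Abcg1, a cholesterol exporter, was at 410 ± 50.7 CPM in CD301b, 490 ± 46.1 CPM in SIRPa and 272 ± 5.81 CPM in XCR1 (SD, n = 3), with differences from XCR1 of 0.59 ± 0.11 and 0.85 ± 0.11 (adjusted p = 0.000243 and 3e-06). Soat1, which esterifies cholesterol, was at 262 ± 23.8, 270 ± 16.8 and 163 ± 8.28 CPM (adjusted p = 3.99e-05 and 1.69e-05 against XCR1), and Nceh1, which hydrolyses the esters, at 109 ± 8.95, 121 ± 6.02 and 13.3 ± 4.01 CPM (adjusted p = 2.33e-11 and 1.25e-11). Cyp7b1, an oxysterol hydroxylase, was at 52.5, 41.9 and 51.9 CPM in CD301b, 15.1, 9.04 and 13.2 CPM in SIRPa and 0, 0.665 and 0 CPM in XCR1 (adjusted p = 5.12e-05 and 0.000326 against XCR1, and 0.0787 between CD301b and SIRPa). Cyp27a1, the sterol hydroxylase, was chosen after its values were seen because it was the only called gene lower in CD301b. It was at 16.7, 19.0 and 13.8 CPM in CD301b, 16.3, 14.0 and 15.7 CPM in SIRPa and 40.7, 43.6 and 31.5 CPM in XCR1, lower by -1.23 ± 0.21 and -1.33 ± 0.22 (adjusted p = 0.000188 and 7.1e-05). Nr1h2, an oxysterol receptor, was the other gene called lower in SIRPa, at -0.60 ± 0.15 (adjusted p = 0.00549). The Nr1h2 call was lost without XCR1 library 1, just past the threshold at an adjusted p of 0.0500058.

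**Figure D4:**
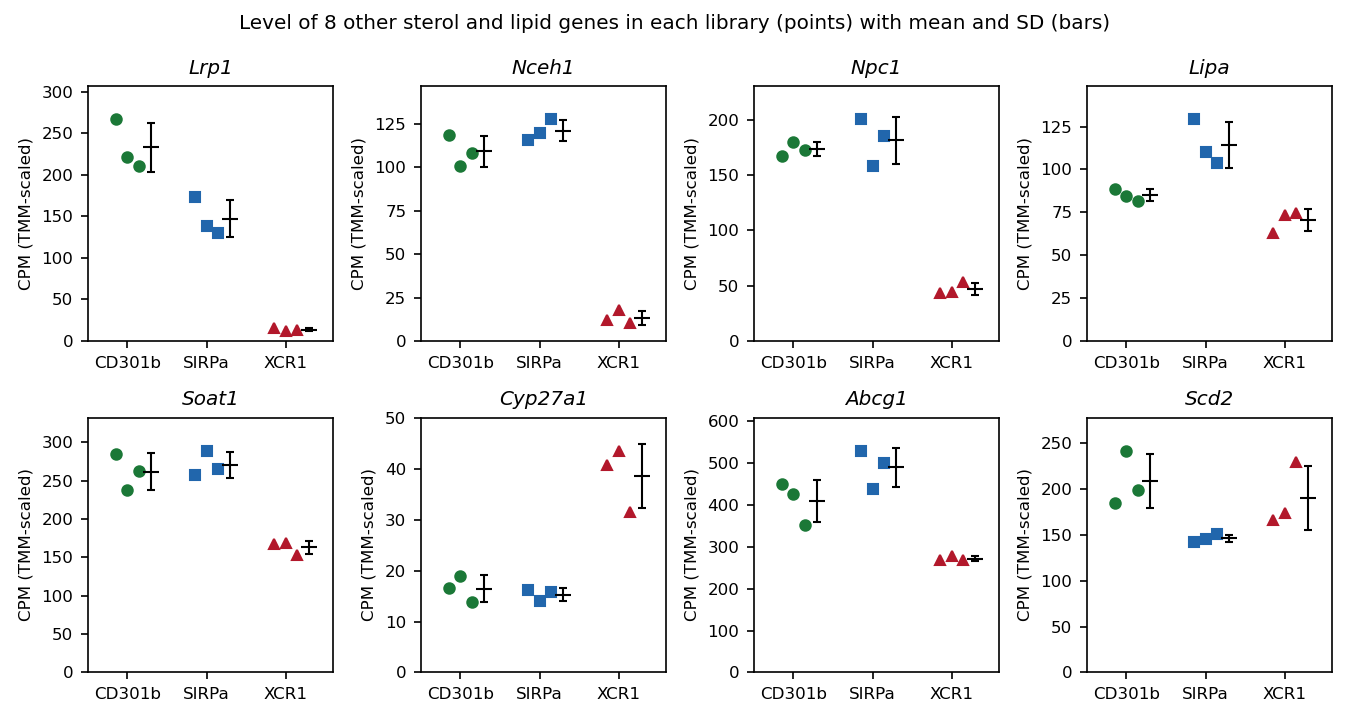
Level in CPM (linear axes from 0, TMM-scaled) of 8 other sterol and lipid genes in each of the 9 libraries, with points for libraries and bars for the mean and SD of each population. Npc1 in XCR1 libraries is at 43.8 to 53.2 CPM, below all 6 others, and Cyp27a1 in XCR1 libraries is at 31.5 to 43.6 CPM, above all 6 others.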

How the data were processed

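RNA was sequenced from 9 libraries of sorted thymic dendritic cells. Per the labels' protocols, thymi were digested with collagenase D and cells were sorted, and libraries were made with a Clontech stranded total RNA kit and read on a NextSeq. Per the submitters' processing notes, the authors used the build mm10 and HISAT2, Trimmomatic, featureCounts (Subread), FastQC, edgeR and SAMtools, listed with no roles. Their versions, the gene models and whether counting used strand are not given there, so genes that overlap others are uncertain. The deposited table holds raw read counts per gene symbol; 24 symbols turned into dates (0.125% to 0.187% of counts) were left out, and a second table of log2 CPM values was not used.

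Genes passed filterByExpr with a minimum count of 10. edgeR 4.0.16 (R 4.3.3; robust quasi-likelihood, two-sided) was fitted to all 9 libraries with TMM. Intervals are 95%. Exon lengths and positions are from GENCODE M21 (GRCm38). Alternatives were DESeq2 1.42.0, its size factors, no filter, only the 6 libraries compared, a replicate block and each library left out. Replicate pairs of a group differed beyond counting noise, at a chi-square per degree of freedom of 17.6 to 48.1. The script was tested on simulated data. All 31 genes are named, with every library's value for those called with a log2 difference of at least 0.5 and for Srebf2, Fasn and Hmgcs1. From each further list up to 3 called genes of smallest adjusted p were named per comparison, and Srebf1, Scd1 and Scd2 always; 2 genes of these lists are not reported here. The genes and lists were chosen with earlier results of these data known.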

Additional observations from a re-analysis of the deposited data

How the results depend on the processing

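The 14 calls within the list were refitted 196 times under 14 alternatives each. Direction was the same in 196 of these refits, and 150 were still called. Fasn and Srebf2 in both comparisons with XCR1, Elovl5 in CD301b against XCR1, and Acaca, Hmgcs1 and Sqle in SIRPa against XCR1 were called in every refit. Genes of the list called higher in CD301b than in SIRPa went from 0 to 1 under DESeq2 and to 1 with only the 6 libraries compared, in both cases Elovl5. Those called higher in CD301b than in XCR1 went from 3 to 1 with only the 6 libraries compared. Those called higher in SIRPa than in XCR1 went from 2 to 1 without the filter on low counts and to 1 with the replicate block, and the block otherwise gave 5 lower in place of 6. Deviations from the population means correlated at 0.00305 to 0.0413 between same-numbered libraries and at -0.0672 to 0.0481 between the others. With 3 libraries a population, these values cannot tell whether replicate numbers pair the libraries.

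With 1 library left out, the counts for higher genes of the list were 0 to 0, 1 to 3 and 1 to 2 in the 3 comparisons in the order given, and for lower genes 0 to 0, 2 to 4 and 4 to 7. Genes called in all were 328 to 813 in CD301b against SIRPa (660 with every library), with the fewest without SIRPa library 1, then 418 without SIRPa library 3 and 438 without CD301b library 3, and 2921 to 3249 and 3015 to 4042 against XCR1. Under DESeq2 these counts were 981, 4134 and 4329. Genes below 5 CPM (5 of the 31) are limited by their low counts. Among them, Fdps and Tm7sf2 also share exonic bases with other genes on the same strand.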
